A study of Homo sapiens with 6 samples.

Results

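The 10 genes described here encode complement proteins and other secreted or cytokine-induced products with which an epithelium meets microbes: C3, CFB, C1S, C1R, LCN2, TNFAIP2, SAA1, SAA2, PI3 and SLPI. They are 10 of the 62700 genes in the deposited count table, found by symbol, and 9 of them had enough reads to be tested. The members were chosen by measured values: the set was picked around lower C3, LCN2 and TNFAIP2 in the knockdown comparison reported here. The differences between groups are therefore a description for all 10 genes, with no p-value. Messenger RNA was sequenced from the SAS line, grown from a squamous carcinoma of the tongue, in 6 libraries. There were 3 libraries labelled IGF2BP1 knockdown, from cells given an siRNA against IGF2BP1 (IGF2BP1 siRNA 1 to 3), and 3 libraries labelled WT, from cells given a control siRNA (control siRNA 1 to 3). IGF2BP1 binds mRNAs and protects many of them from decay, and the study asked whether it counteracts the repression of YAP1 by Hippo signalling. All cells are 1 line with no added immune cells or microbes named, and the labels give neither the siRNA sequence nor whether replicates were separate cultures, so the spread behind each p-value is that of these libraries and may be technical only.

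Complement is a cascade of serum and tissue proteins that coat and lyse microbes. C1R and C1S are the serine proteases of the C1 complex that starts the classical route, CFB supplies the protease of the alternative route, and all routes meet at the cleavage of C3. The liver makes most circulating complement, and epithelial cells make these proteins locally, more so when exposed to inflammatory cytokines. LCN2 binds bacterial siderophores and so withholds iron, SLPI and PI3 (elafin) inhibit neutrophil proteases and carry a WAP domain, and SAA1 and SAA2 are acute-phase apolipoproteins. TNFAIP2 is not secreted: it is an intracellular protein related to the exocyst subunit SEC6, named for its induction by tumour necrosis factor.

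Library totals lay between 17918496 and 25926371 reads in IGF2BP1 siRNA libraries and between 23775889 and 26675064 in control siRNA libraries. A gene is called where its edgeR quasi-likelihood p, adjusted by the Benjamini-Hochberg method over all 14649 tested genes, was under 0.05, and SE and 95% intervals are on the log2 scale. IGF2BP1 itself had 29, 25 and 21 reads in the IGF2BP1 siRNA libraries against 185, 223 and 292 in the control siRNA libraries (log2 fold change -3.07, SE 0.30, edgeR adjusted p = 4.56e-06). All 12 squamous epithelial markers had reads in these libraries, and their summed level was 5668 to 6182 CPM (reads scaled to a common library size with TMM factors) in IGF2BP1 siRNA libraries and 9405 to 10340 CPM in control siRNA libraries. KRT5 alone stood at 477 ± 32.9 CPM with IGF2BP1 siRNA and 3584 ± 233 CPM with control siRNA (SD, n = 3 each), most of that difference. KRT6A, CDH1, KRT14 and PKP1 also fell, beside 6.66% of all tested genes called lower. The other 7 of the 12 were not called. Of these, TP63 (log2 fold change -0.01), KRT17 (-0.01), SFN (-0.04), DSP (-0.12) and EPCAM (0.12) lay nearest to 0. DSG3 stood at -0.66 and DSC3 at -1.02, with every IGF2BP1 siRNA library below every control siRNA library for DSC3. The part of this shift in the values given here was not tested. Markers of other cells that make these products had lower sums. The 10 hepatocyte markers summed to 0.263 to 0.550 CPM in IGF2BP1 siRNA libraries and 0.384 to 0.438 CPM in control siRNA libraries. ALB was at 0 in all 6 libraries. The 10 fibroblast markers summed to 5.72 to 9.29 CPM in IGF2BP1 siRNA libraries and 6.37 to 8.54 CPM in control siRNA libraries. Of these PDGFRB rose after IGF2BP1 siRNA (log2 fold change 1.52, edgeR adjusted p = 0.0491). This call was lost without any 1 of the 6 libraries, with no count filter (edgeR adjusted p = 0.0564) and by limma-voom (adjusted p = 0.0605). The 12 leukocyte markers summed to 25.4 to 29.2 CPM with IGF2BP1 siRNA and 28.9 to 31.7 CPM with control siRNA. PTPRC was at 0 in all 6 libraries. CD14 averaged 13.1 CPM with IGF2BP1 siRNA and 17.8 CPM with control siRNA, CSF1R 10.6 and 7.48, and LCP1 3.69 and 4.65. These 3 were not called, and the member C1R averaged 10.3 and 16.9 CPM. The 10 endothelial markers summed to 8.53 to 15.4 CPM with IGF2BP1 siRNA and 7.19 to 9.63 CPM with control siRNA.

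Gene structure limits what the counts say about some of these genes, and the SAA pair shows it most directly. SAA1 (ENSG00000173432; GRCh38 chromosome 11, 18266174 to 18269977, plus strand) and SAA2 (ENSG00000134339; 18239223 to 18248643, minus strand) lie side by side, and their coding sequences of 366 bases differ at 11 positions (97.0% identity). The longest identical coding run is 186 bases, so a read inside it cannot be assigned to either gene. Exon bases outside the coding sequences were not compared. Of the 11 differing bases, 9 lie in the 136 bases of coding exon 3, printed 5′ to 3′ as the GENCODE transcripts give them. These are SAA1 chr11:18269717-18269852, plus strand, and SAA2 chr11:18245380-18245515, minus strand. Differing bases are in capitals because, within the coding sequences, only reads over such positions tell the genes apart.
SAA1: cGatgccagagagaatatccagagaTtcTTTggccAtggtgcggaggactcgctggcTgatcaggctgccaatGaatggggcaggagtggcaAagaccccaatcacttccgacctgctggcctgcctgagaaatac
SAA2: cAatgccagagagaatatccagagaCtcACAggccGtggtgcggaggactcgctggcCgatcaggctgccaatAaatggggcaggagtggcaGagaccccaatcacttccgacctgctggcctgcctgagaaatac
The split between SAA1 and SAA2 is therefore uncertain, and their sum is given below as well. A gene that reads through from SAA2 into SAA4, on the same strand, and a pseudogene together share 14.3% of the exon bases of SAA2.

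CFB (ENSG00000243649; chromosome 6, 31945650 to 31952084, plus strand) had 0, 1 and 0 reads in the IGF2BP1 siRNA libraries and 0, 0 and 7 in the control siRNA libraries, and was not tested. Most of its coding sequence is also an exon of another gene: 97.2% of its 2292 coding bases are shared, on the same strand, with the C2-CFB read-through gene ENSG00000244255, which was listed at 0 in all 6 libraries. Reads from those bases belong to both genes at once, and how the counting treated such reads is not given in the sources used here. The count of CFB is therefore no measure of its mRNA, and no level, fold or floor is given for it.

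C3, the complement gene with the most reads in the set, was lower after IGF2BP1 siRNA. C3 (ENSG00000125730; chromosome 19, 6677704 to 6730562, minus strand), the protein on which all complement routes converge, stood at 166, 112 and 172 CPM in IGF2BP1 siRNA libraries against 471, 448 and 491 CPM in control siRNA libraries. The groups did not overlap, and every IGF2BP1 siRNA library was far below every control siRNA library. C3 averaged 150.3 ± 33.1 CPM with IGF2BP1 siRNA and 470.1 ± 21.9 CPM with control siRNA (SD, n = 3 each), a log2 fold change of -1.65 (SE 0.14, 95% interval -1.94 to -1.35). Within the IGF2BP1 siRNA group library 2 was the lowest, and the coefficient of variation was 22.0% there against 4.67% in the control siRNA group.

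The proteases of the C1 complex were lower too, from far lower levels. C1S (ENSG00000182326; chromosome 12, 6988259 to 7071032, plus strand), which cleaves C4 and C2, stood at 3.41, 3.72 and 5.45 CPM in IGF2BP1 siRNA libraries and 10.8, 9.52 and 11.1 CPM in control siRNA libraries. These values rest on 62, 85 and 142 reads in IGF2BP1 siRNA libraries and 246, 221 and 290 in control siRNA libraries, and gave a log2 fold change of -1.31 (SE 0.24, 95% interval -1.82 to -0.80). C1R (ENSG00000159403; chromosome 12, 7080199 to 7092607, minus strand), which activates C1S, stood at 11, 8.01 and 12.02 CPM in IGF2BP1 siRNA libraries against 19.2, 15.5 and 16 CPM in control siRNA libraries. Its groups did not overlap either, and its log2 fold change of -0.71 (SE 0.19, 95% interval -1.12 to -0.30) was the nearest to 0 of the called genes in the set. It no longer passed without IGF2BP1 siRNA 2 (log2 fold change -0.58) and without control siRNA 1 (-0.64). Per length, C1S had 0.217, 0.325 and 0.317 of the level of C1R in the IGF2BP1 siRNA libraries and 0.394, 0.428 and 0.486 of it in the control siRNA libraries. Whether C1S and C1R differ in their response was not tested, and the 95% intervals of their fold changes overlap. Same-strand neighbours share 11.4% of the exon bases of C1R (C1RL) and 3.54% of those of C1S (EMG1).

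Other complement genes were mostly near the limit of detection. Over all tested genes 6.66% were called lower and 6.27% higher. Of 25 further cascade components, 13 had 0 reads in all 6 libraries and 5 were tested: C1RL, C4A, C4B, CFD and COLEC11. By edgeR 0 of these 5 were called, with log2 fold changes from -0.11 (C1RL) to 0.65 (COLEC11, adjusted p = 0.360), and 1 further gene, named after its values were seen, was called in 2 alternatives: C8G, with 3, 5 and 4 reads in IGF2BP1 siRNA libraries and 6, 36 and 32 in control siRNA libraries, was lower with no count filter (log2 fold change -2.47, adjusted p = 0.0236) and without control siRNA 1 (-2.95, adjusted p = 0.0159). C4A and C4B are near-identical copies, so their reads cannot be assigned firmly. C5, the next component after C3, had 0, 3 and 0 reads in IGF2BP1 siRNA libraries and 1, 0 and 0 in control siRNA libraries. Of 30 regulators and receptors 9 were tested, and 1 was called, a share near the 12.9% of all tested genes called in either direction. ITGB2, the beta chain shared by the C3 fragment receptors CR3 and CR4, rose to 36.2 ± 3.47 CPM after IGF2BP1 siRNA, against 24.4 ± 1.56 CPM in controls (SD, n = 3 each; log2 fold change 0.57, edgeR adjusted p = 0.0112). Its call was lost without IGF2BP1 siRNA 3 (0.50, adjusted p = 0.0622) or control siRNA 3 (0.50, adjusted p = 0.0554), and an antisense gene shares 4.46% of its exon bases. The alpha chain genes of these receptors were lower in level and not called. ITGAM averaged 0.495 CPM with IGF2BP1 siRNA and 0.372 CPM with control siRNA (edgeR adjusted p = 0.781). ITGAX averaged 2.30 and 1.00 CPM (log2 fold change 1.19, edgeR adjusted p = 0.0622). The membrane inhibitors that shield host cells from complement were not called: CD46 had a log2 fold change of -0.21, CD55 of -0.47 and CD59 of 0.27, with edgeR adjusted p-values of 0.749, 0.217 and 0.348.

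**Figure D1:**
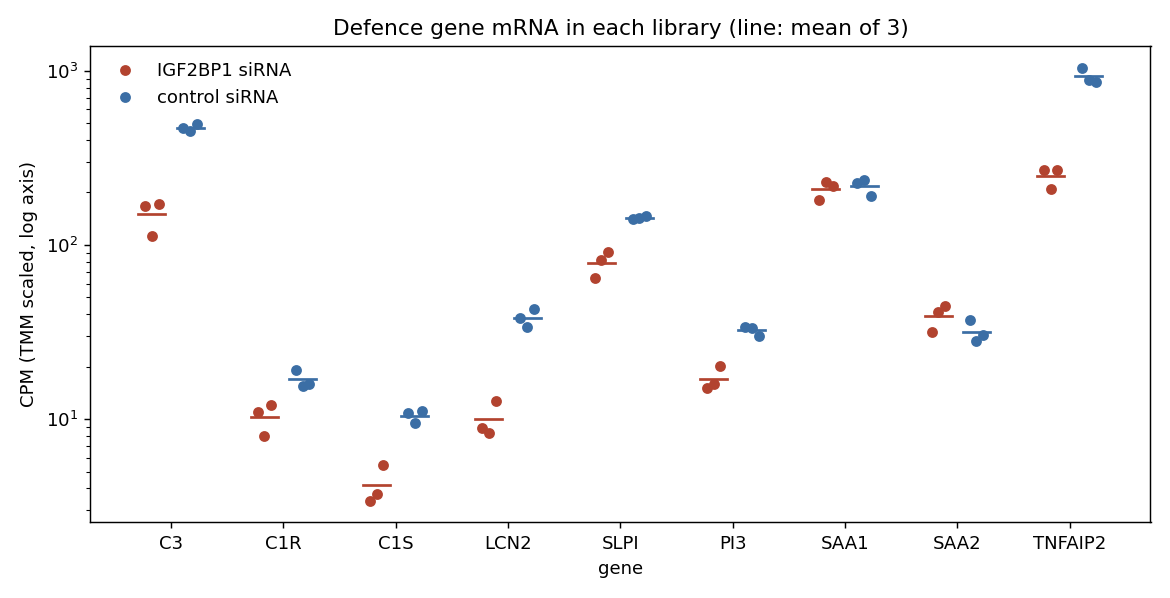
CPM (TMM scaled, log axis) of 9 genes in each library, with IGF2BP1 siRNA libraries (red) left of control siRNA libraries (blue); each point is 1 library and each line the mean of 3. C3, C1R, C1S, LCN2, SLPI, PI3 and TNFAIP2 have all 3 IGF2BP1 siRNA points below all 3 control siRNA points, while the points of SAA1 and SAA2 overlap.

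LCN2 and TNFAIP2 had the lowest fold changes of the set, in an order that turned without IGF2BP1 siRNA 1 (-1.87 for LCN2, -1.95 for TNFAIP2) and without control siRNA 3 (-1.86 for LCN2, -1.97 for TNFAIP2). LCN2 (ENSG00000148346; chromosome 9, 128149071 to 128153455, plus strand) encodes lipocalin 2, the siderophore-binding protein that starves bacteria of iron. It stood at 8.91, 8.31 and 12.7 CPM in IGF2BP1 siRNA libraries against 38.0, 33.9 and 42.8 CPM in control siRNA libraries, from 162, 190 and 330 reads with IGF2BP1 siRNA against 868, 788 and 1115 with control siRNA. Every IGF2BP1 siRNA library was below every control siRNA library, and the log2 fold change was -1.94 (SE 0.18, 95% interval -2.32 to -1.55). The 250 bases before its RefSeq start (chr9:128149203-128149452, plus strand, GRCh38) lie inside the longer GENCODE span of the gene, and are shown, with those of TNFAIP2, for these fold changes. Capitals mark matches, on either strand, to short forms of sites for factors that act on inflammatory genes.
LCN2: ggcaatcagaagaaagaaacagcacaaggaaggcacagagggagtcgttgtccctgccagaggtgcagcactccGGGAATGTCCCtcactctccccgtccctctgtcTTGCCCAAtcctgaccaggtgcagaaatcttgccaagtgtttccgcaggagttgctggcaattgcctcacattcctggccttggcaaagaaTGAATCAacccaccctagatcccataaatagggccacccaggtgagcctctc
The capitals from 176 bases before the start are a pair of overlapping matches, 1 on each strand, to a loose form of the NF-kB site (GGG, any 5 bases, then CC), which 58.7% of the 35116 RefSeq windows of 300 bases hold. At 143 bases lies a match to TTNNGNAA, a loose C/EBP form held by 36.8% of windows, and at 52 bases a match to TGANTCA, the AP-1 form, held by 7.71%. TTCNNNGAA, a STAT form in 7.66% of windows, and an IRF form (GAAA, any 2 bases, then GAAA) in 3.57%, had no match in the 250 bases before or the 50 after the start. A match is a description of letters and shows no binding. None of these matches overlaps one of a different motif.

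Of 16 other lipocalin genes 1 was tested in the main fit, too few to describe the family, and 6.27% of all tested genes were called higher. C8G, also on this list, was lower with no count filter and without control siRNA 1, as given above. APOD, a lipid-binding lipocalin, rose to 59, 79 and 113 reads in IGF2BP1 siRNA libraries, against 11, 7 and 14 in control siRNA libraries (log2 fold change 3.05, SE 0.40, edgeR adjusted p = 9.10e-05). SLC22A17, reported as a receptor for LCN2, was not called at 0.70 (edgeR adjusted p = 0.0831).

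The WAP-domain protease inhibitors SLPI and PI3 were lower as well. SLPI (ENSG00000124107; chromosome 20, 45252239 to 45254564, minus strand), which blocks neutrophil elastase, stood at 64.3, 81.8 and 90.5 CPM in IGF2BP1 siRNA libraries and 142, 142 and 146 CPM in control siRNA libraries. The coefficient of variation was 16.9% in the IGF2BP1 siRNA group and 1.57% in the control siRNA group, where the libraries lay close together. Its log2 fold change was -0.86 (SE 0.12, 95% interval -1.12 to -0.60). PI3 (ENSG00000124102; chromosome 20, 45174876 to 45176544, plus strand), the elafin gene, whose product inhibits elastase and proteinase 3 and is cross-linked into the epithelial surface, stood at 15.01, 15.9 and 20.3 CPM in IGF2BP1 siRNA libraries against 33.7, 33.2 and 29.9 CPM in control siRNA libraries. The groups of both genes did not overlap, and PI3 had a log2 fold change of -0.92 (SE 0.16, 95% interval -1.25 to -0.59), within the interval of SLPI.

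Of 16 further WAP family genes 3 were tested, too few to describe the family, and 6.27% of all tested genes were called higher and 6.66% lower. WFDC3 rose, to 8.20 ± 1.88 CPM after IGF2BP1 siRNA against 2.51 ± 0.818 CPM in controls (SD, n = 3 each; log2 fold change 1.71, edgeR adjusted p = 9.47e-04). WFDC2, the gene of the secreted marker HE4, fell (-0.46, edgeR adjusted p = 0.0381), a call lost with no scaling factor (adjusted p = 0.0695) and in 5 of the 6 fits without a library (adjusted p from 0.0568 to 0.0988). ANOS1 was not called at -0.79 (adjusted p = 0.145). ELANE, the gene of neutrophil elastase, a protease that SLPI and PI3 inhibit, had 0 reads in all 6 libraries.

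TNFAIP2 held the most reads of the set in 5 of the 6 libraries. TNFAIP2 (ENSG00000185215; chromosome 14, 103123442 to 103137439, plus strand) stood at 268, 211 and 269 CPM in IGF2BP1 siRNA libraries and 1041, 886 and 857 CPM in control siRNA libraries. The groups lay far apart, with a log2 fold change of -1.90 (SE 0.12, 95% interval -2.15 to -1.64), and no exon base is shared with another gene. The 250 bases before its RefSeq start (chr14:103123211-103123460, plus strand, GRCh38) hold matches, in capitals, to the same NF-kB form at 234 and 163 bases before the start and to the C/EBP form at 21 bases.
TNFAIP2: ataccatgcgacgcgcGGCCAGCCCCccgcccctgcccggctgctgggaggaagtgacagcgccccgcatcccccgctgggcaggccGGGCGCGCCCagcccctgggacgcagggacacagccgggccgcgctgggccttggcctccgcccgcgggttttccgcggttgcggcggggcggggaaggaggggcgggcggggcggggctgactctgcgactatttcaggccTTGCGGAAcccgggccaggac
The AP-1, STAT and IRF forms had no match from 250 bases before to 50 after this start. Promoter sequences were found for 4 of the 10 genes, the others being CFB and C1R.

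Of 12 exocyst subunits and SEC6 relatives of TNFAIP2, all tested, 1 fell, a share near the 6.66% of all tested genes. EXOC3L4, a SEC6-related gene that ends 12.9 kb before TNFAIP2 on the same strand, had 72, 64 and 71 reads in IGF2BP1 siRNA libraries against 181, 160 and 158 in control siRNA libraries (log2 fold change -1.14, SE 0.26, edgeR adjusted p = 0.00853). The other 11 were not called, with log2 fold changes from -0.76 to 1.36, and EXOC3, which encodes SEC6 itself, had 0.04 (adjusted p = 0.862). Whether TNFAIP2 and these genes differ in their response was not tested.

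SAA1 and SAA2 were the members that were not called. SAA1 stood at 181, 231 and 218 CPM in IGF2BP1 siRNA libraries and 227, 236 and 190.4 CPM in control siRNA libraries, and the groups overlapped. Its log2 fold change was -0.05 (SE 0.12, 95% interval -0.30 to 0.19), and its sign turned with no scaling factor (0.033). Whether SAA1 differed in its response from the 7 called genes was not tested. SAA2 stood at 31.5, 41.1 and 44.5 CPM in IGF2BP1 siRNA libraries against 36.9, 27.9 and 30.6 CPM in control siRNA libraries, again overlapping, with a log2 fold change of 0.30 (SE 0.16, 95% interval -0.03 to 0.63). Summed into 1 gene, an alternative chosen after seeing the data, the pair had a log2 fold change of -0.0052 (SE 0.12). SAA2 took 14.8%, 15.1% and 16.9% of the reads of the pair in IGF2BP1 siRNA libraries and 14.0%, 10.6% and 13.8% in control siRNA libraries. These shares did not overlap between groups, but they depend on how reads common to both genes were placed.

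The other genes can also be given per SAA1 read of the same library, which needs no scaling between libraries. C3 had 0.921, 0.486 and 0.790 reads per SAA1 read in IGF2BP1 siRNA libraries and 2.07, 1.90 and 2.58 in control siRNA libraries. LCN2 had 0.0493, 0.0360 and 0.0581 in IGF2BP1 siRNA libraries against 0.167, 0.144 and 0.225 in control siRNA libraries. TNFAIP2 had 1.48, 0.913 and 1.23 in IGF2BP1 siRNA libraries against 4.58, 3.75 and 4.50 in control siRNA libraries. For each of these genes, and for SLPI, every IGF2BP1 siRNA library was below every control siRNA library, as in CPM. These ratios restate in another unit the differences the set was picked on, with SAA1 taken as the divisor because it differed little in the same libraries, and support nothing further. In bulk RNA, fewer cells expressing a gene and less RNA per cell cannot be told apart.

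**Figure D2:**
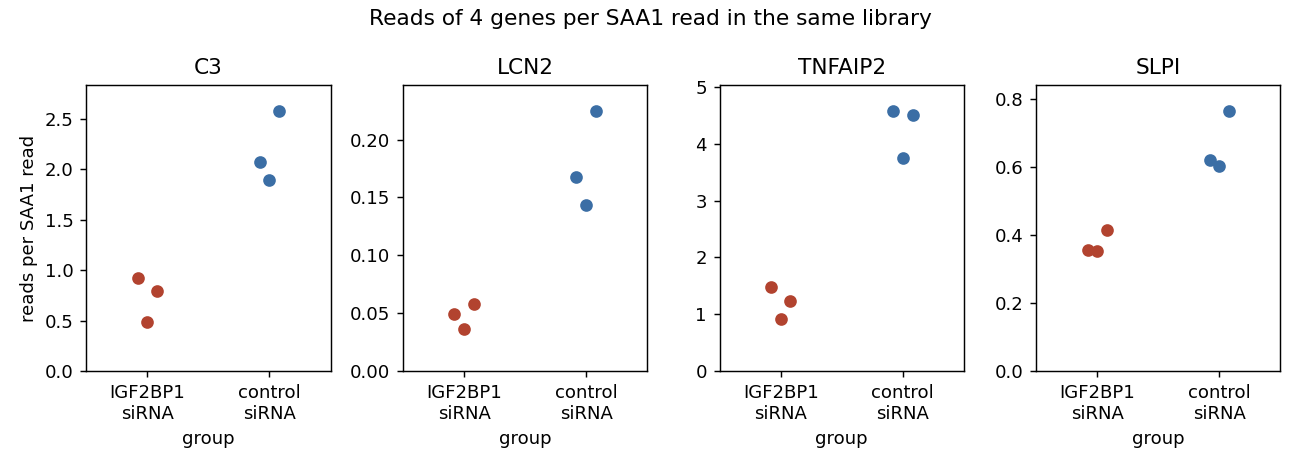
Reads of C3, LCN2, TNFAIP2 and SLPI per SAA1 read of the same library (linear axes from 0), IGF2BP1 siRNA libraries (red) left of control siRNA libraries (blue), 1 point per library. In each panel the 3 IGF2BP1 siRNA points lie below the 3 control siRNA points, as for C3 with at most 0.921 against at least 1.90.

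Of the 9 tested genes 7 were called lower by edgeR and 0 higher. Over all tested genes 6.66% were called lower and 6.27% higher, and every IGF2BP1 siRNA library was below every control siRNA library for 15.1%. Since the set was picked with this comparison in view, nothing is read from its count. The split of calls over all genes, 48.5% of them higher, was 63.2% higher with no scaling factor. Another acute-phase gene, SERPINA1, which encodes the elastase inhibitor alpha-1-antitrypsin, fell to 106 ± 17.3 CPM, against 155 ± 26.1 CPM in controls (SD, n = 3 each; log2 fold change -0.55, edgeR adjusted p = 0.0160, but 0.0688 without control siRNA 3). PTX3, a soluble pattern-recognition protein that engages complement, was not called at -0.58 (adjusted p = 0.202), and no other of the 23 listed acute-phase genes was tested.

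**Figure D3:**
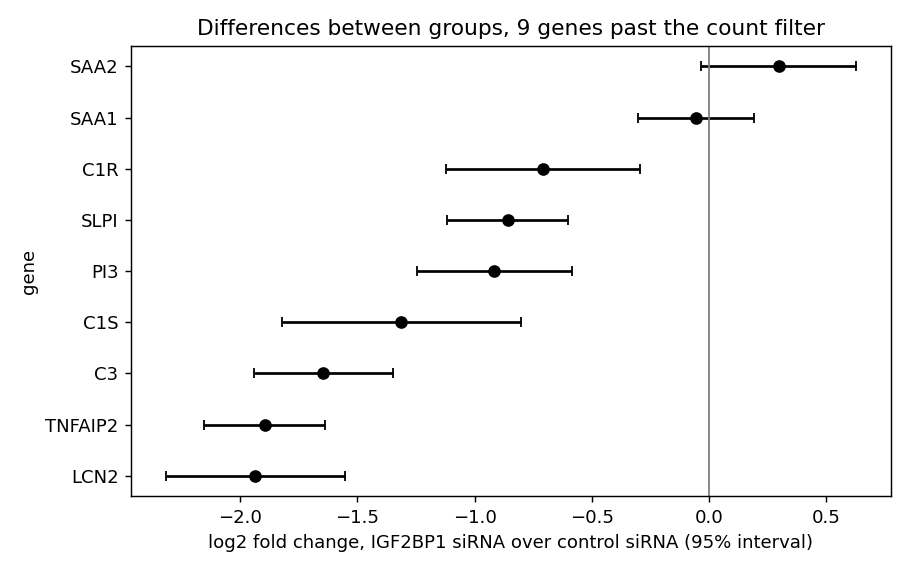
Log2 fold change of IGF2BP1 siRNA over control siRNA for the 9 genes past the count filter, with 95% intervals from the edgeR fit. The values run from 0.30 for SAA2 to -1.94 for LCN2, and the intervals of SAA1 and SAA2 are the ones that cross 0.

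Per length, the order of the genes differed between groups. In TPM, a level scaled by the deposited gene length and then to a common total, SAA1 led in IGF2BP1 siRNA libraries at 628 ± 79.2, followed by SLPI (420.0 ± 64.9), TNFAIP2 (157 ± 18.9), PI3 (98.3 ± 13.7), SAA2 (55.3 ± 8.92), C3 (41.2 ± 8.45), LCN2 (19.8 ± 4.15), C1R (5.65 ± 1.03) and C1S (1.60 ± 0.378). In control siRNA libraries SLPI led at 739 ± 17.8 TPM, followed by SAA1 (631 ± 67.2), TNFAIP2 (564 ± 54.7), PI3 (180.2 ± 10.2), C3 (125 ± 6.24), LCN2 (73.8 ± 8.83), SAA2 (43.6 ± 6.01), C1R (8.96 ± 0.958) and C1S (3.89 ± 0.317; all SD, n = 3 each). Neighbours in these orders had separate ranges except SAA2 and C3 in IGF2BP1 siRNA libraries and SAA1 and TNFAIP2 in control siRNA libraries. These places depend on the gene length used. With the exon bases of GENCODE release 29 (8328 for C3 against a deposited 11577, and 796 for SAA1 against 1062), an alternative chosen after seeing the data, C3 stood at 57.2 TPM and SAA2 at 55.6 in IGF2BP1 siRNA libraries. With that length SAA1 led in control siRNA libraries too (842 TPM against 739 for SLPI), and C3 stood at 174 TPM there against 172 for PI3. The 10 genes together took 0.0761%, 0.0760% and 0.0849% of all reads in IGF2BP1 siRNA libraries and 0.194%, 0.178% and 0.177% in control siRNA libraries.

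Of 36 other antimicrobial and mucosal defence genes 8 were tested, 1 rose, 1 fell and 6 were not called, against 6.27% of all tested genes higher and 6.66% lower. S100A7, psoriasin, which kills bacteria by binding zinc, fell to 8.46 ± 2.81 CPM, against 28.3 ± 5.68 CPM in controls (SD, n = 3 each; log2 fold change -1.73, edgeR adjusted p = 1.33e-04). RNASE7, a ribonuclease with broad antimicrobial action in skin, rose to 23.6 ± 3.13 CPM, against 10.5 ± 0.879 CPM in controls (SD, n = 3 each; 1.16, edgeR adjusted p = 2.51e-04). The calprotectin genes S100A8 and S100A9 were not called at -0.29 and 0.24 (adjusted p = 0.553 and 0.131), and the median of the 8 was -0.29, against 0.033 over all tested genes. DEFB4A, an inducible defensin gene, had 0 reads in all 6 libraries.

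The gene lists, this one among them, were drawn up with earlier results of these data known, so a count is no independent evidence of a direction. Of 26 cytokines and transcription factors listed, 21 were tested, 9 fell and 0 rose, beside 6.66% lower and 6.27% higher of all tested genes, with a median log2 fold change of -0.56 against 0.033 over all tested genes. ELF3, an epithelial factor of the ETS family, fell most (-1.70, SE 0.11, edgeR adjusted p = 3.55e-08). An antisense gene and a same-strand gene each share 9.23% of its exon bases. IL6, the main inducer of acute-phase genes in liver, fell to 13.5 ± 3.05 CPM, against 31.9 ± 2.14 CPM in controls (SD, n = 3 each; -1.24, adjusted p = 1.51e-04), with 20.7% of its exon bases shared with genes of the opposite strand. CEBPD, a C/EBP factor that acts on acute-phase promoters, fell to 67.4 ± 6.51 CPM, against 121 ± 16.8 CPM in controls (-0.85, adjusted p = 2.23e-04). The other 6 called genes had log2 fold changes from -0.67 to -0.56. STAT3, which carries the IL-6 signal, was not called at 0.27 (adjusted p = 0.123), nor was NFKBIZ, an NF-kB cofactor needed for LCN2 induction in mouse cells, at -0.57 (adjusted p = 0.256), while TNF had 0 reads in 5 of the 6 libraries and 1 in control siRNA 3.

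**Figure D4:**
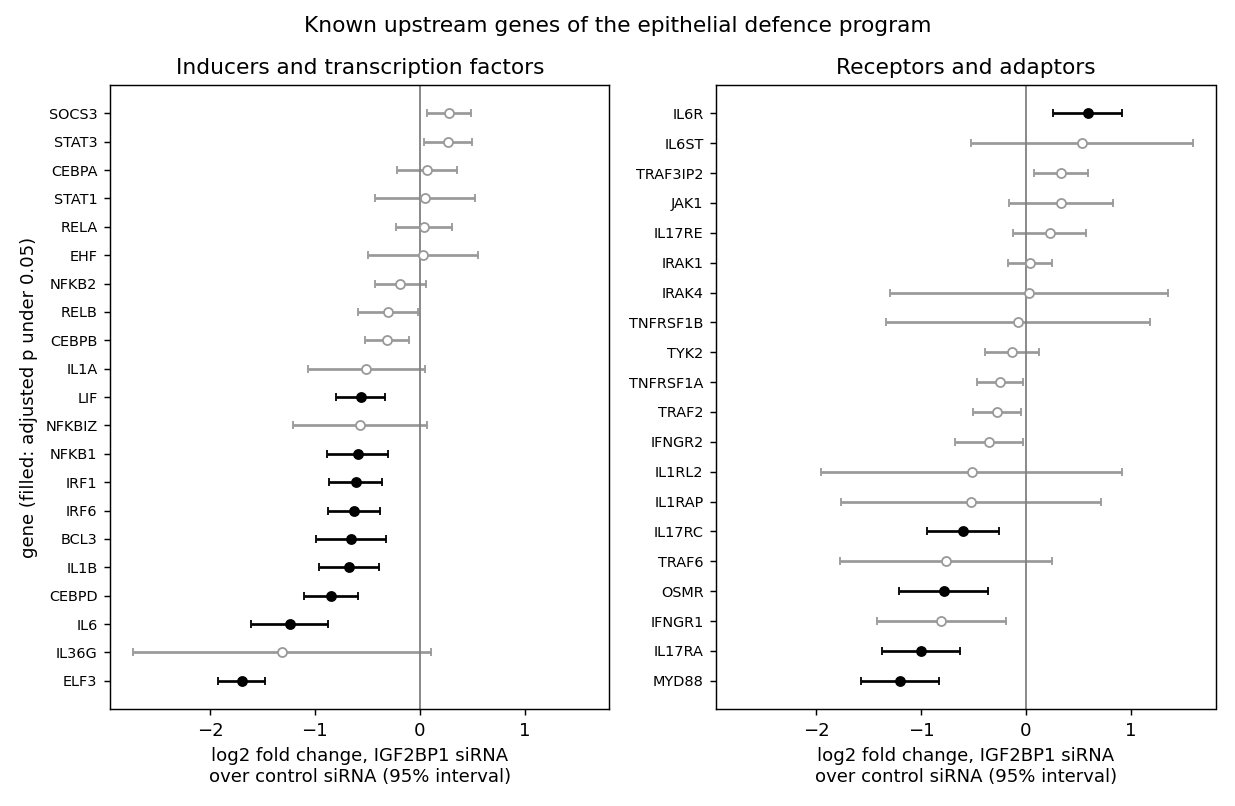
Log2 fold change of IGF2BP1 siRNA over control siRNA with 95% intervals for the tested inducers and transcription factors (left) and receptors and adaptors (right), filled where the edgeR adjusted p was under 0.05. On the left the 9 filled points lie between -1.70 (ELF3) and -0.56, and on the right 4 filled points lie below 0 and 1, IL6R, above it.

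Of 29 receptors and adaptors listed, 20 were tested, 4 fell and 1 rose, beside 6.66% lower and 6.27% higher of all tested genes, with a median of -0.26. MYD88, the adaptor of the IL-1 receptor and most Toll-like receptors, fell to 12.1 ± 2.38 CPM, against 27.8 ± 1.53 CPM in controls (SD, n = 3 each; log2 fold change -1.20, edgeR adjusted p = 2.17e-04). IL17RA, the receptor chain through which IL-17 induces LCN2 in epithelium, fell to 26.6 ± 7.27 CPM, against 53.1 ± 3.80 CPM in controls (-0.999, adjusted p = 0.00110). OSMR, the oncostatin M receptor chain, fell (-0.78, adjusted p = 0.0157), but its call was lost with no scaling factor (adjusted p = 0.0567) and without IGF2BP1 siRNA 1 or 3 or control siRNA 2 or 3 (0.0505 to 0.0964). IL6R rose (0.59, adjusted p = 0.0174), but did not pass without IGF2BP1 siRNA 1 or 2 or control siRNA 1 or 2 (0.0556 to 0.0824). The number that fell was 2 without IGF2BP1 siRNA 3 and 2 without control siRNA 2.

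Of 13 genes whose products bind or are inhibited by the proteins of the set, 7 were tested and 3 fell, beside 6.66% of all tested genes. GRN, the progranulin gene, whose product SLPI protects from elastase, fell to 642 ± 56.9 CPM, against 983 ± 41.7 CPM in controls (SD, n = 3 each; log2 fold change -0.61, edgeR adjusted p = 6.86e-04). PLSCR1, a phospholipid scramblase that binds SLPI, fell (-0.91, adjusted p = 0.00369), as did SCARB1, a lipoprotein receptor that takes up SAA (-0.51, adjusted p = 0.00865, but 0.0510 without IGF2BP1 siRNA 3). FPR2, a receptor for SAA on leukocytes, had 0 reads in all 6 libraries.

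The genes around these loci were read to see whether neighbours moved with them. The 7 loci have 28 nearest tested protein-coding neighbours, of which 5 fell (17.9%, against 6.66% of all tested genes), 0 rose and 23 were not called, the last with log2 fold changes from -0.57 to 0.36. All neighbours that fell flank C3, LCN2 or TNFAIP2. Beside C3, TNFSF9, the 4-1BB ligand gene 141.8 kb away, fell to 5.69 ± 1.02 CPM, against 20.9 ± 3.71 CPM in controls (SD, n = 3 each; log2 fold change -1.87, edgeR adjusted p = 1.42e-05). CD70, another ligand gene of the TNF superfamily, fell by 0.58 (adjusted p = 0.00662) and TRIP10, which encodes a CDC42-binding protein, by 0.56 (adjusted p = 0.00229, with 2.69% of its exon bases shared with the opposite strand), while GPR108, which overlaps the start of C3, was not called at -0.09 (adjusted p = 0.686). Beside LCN2, SLC25A25, a mitochondrial carrier gene, fell (-0.70, adjusted p = 0.00206, with 16.2% of its exon bases shared with the opposite strand). Beside TNFAIP2 it was EXOC3L4. Around SAA1 and SAA2, C1S and C1R, CFB, and PI3 and SLPI, 0 neighbours were called by edgeR. Whether the shared position bears on these values was not tested.

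**Figure D5:**
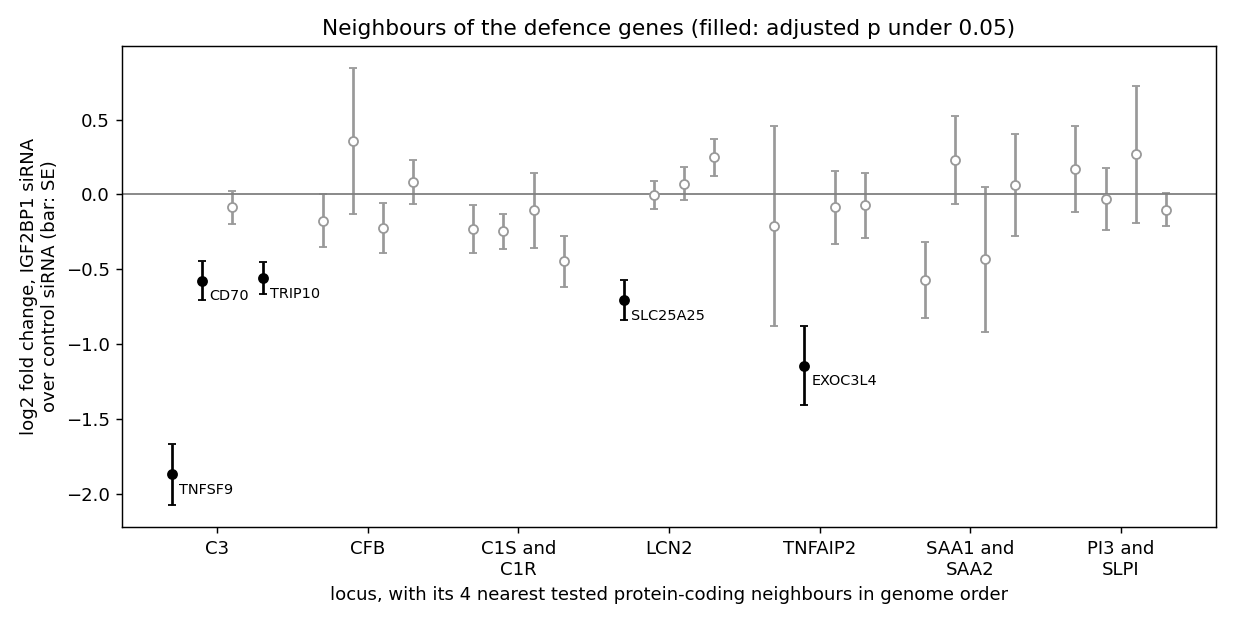
Log2 fold change of IGF2BP1 siRNA over control siRNA (bars are SE) for the 4 nearest tested protein-coding neighbours of each of 7 loci, filled where the edgeR adjusted p was under 0.05. The 5 filled points flank C3 (TNFSF9, CD70, TRIP10), LCN2 (SLC25A25) and TNFAIP2 (EXOC3L4), and all lie below 0.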

How the data were processed

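The authors deposited 1 table with a raw count for each gene in each of the 6 libraries. Per the submitters' processing notes the tools were featureCounts 2.0.0, HISAT2 2.1.0, cutadapt 2.8 and SAMtools 1.10, and the build was hg38. Strand setting, annotation release and treatment of shared reads: not given in the sources used here. The deposited gene length in bases, a value of another kind, served for TPM. Columns were matched to samples by library name, and 0 per-sample columns were unused.

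Genes were kept with filterByExpr (minimum count 10, minimum total 15), leaving 14649, and fitted by edgeR 4.0.16 (R 4.3.3; TMM, robust dispersions, glmQLFit and glmQLFTest, no covariate, Benjamini-Hochberg over all tested genes, call under 0.05). Scaling factors lay between 0.961 and 1.068. Fold changes are IGF2BP1 siRNA over control siRNA. The SE is the log2 fold change divided by the square root of the quasi-F statistic. At these depths 3 reads are 0.112 to 0.167 CPM, a floor that covers counting error only. Replicate pairs differed by more than sampling noise (chi-square per degree of freedom 14.6 to 36.2).

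The members and 15 other gene lists were chosen with earlier results of these data known. Named genes are the members, up to 3 called genes per list and direction, and partners of the members. The 2 nearest tested neighbours on each side and the 3 genes most like C3, LCN2 and TNFAIP2 are also named. ANOS1, C8G, DEFB4A, EXOC3, PTX3, S100A8, S100A9 and further cell type markers were added after their values were seen. One result under this rule is not reported here. Coordinates and exon overlaps are from GENCODE release 29 (GRCh38, the assembly called hg38), and promoters from RefSeq (GRCh38). Alternatives were RLE scaling, no scaling factor, a minimum of 5 CPM in 3 libraries or no filter, a block for the replicate number, each library left out, SAA1 and SAA2 summed and GENCODE exon lengths (both added after seeing the data), DESeq2 1.42.0 and limma-voom (limma 3.58.1).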

Additional observations from a re-analysis of the deposited data

How the results depend on the processing

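Among the 9 tested members, 114 of 118 values under the alternatives kept their direction and their side of the threshold. C1R lost its call in 2 fits, and SAA1, never called, changed sign with no scaling factor (0.033) and between fits without a library (-0.16 to 0.039). The number of members called lower was 7 in the main analysis and 6 or 7 in all alternatives. Of 453 values of 35 other named genes, 27 lost the call and 0 changed sign. Genes called higher over the whole table numbered 918, and 529 to 828 in fits without a library. Those over 1.5 times fewer came without IGF2BP1 siRNA 3 (587), control siRNA 1 (585) and control siRNA 2 (529). Of 110 tested listed genes besides the members, 6 were called higher and 25 lower in the main analysis, beside 6.27% and 6.66% of all tested genes. The lists were drawn up with earlier results of these data known, so nothing is read from these counts. Listed genes called higher numbered 13 with no scaling factor (22 lower) and 10 with the 5 CPM filter. The causes were not tested.

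Whether replicate numbers pair the libraries was not settled. The deviations of same-numbered libraries correlated by 0.18, 0.086 and -0.073, and those of differently numbered libraries by -0.23 to 0.17. With the replicate number as a block, 1158 genes were higher and 1273 lower, and 7 members were lower. RPKM differs from TPM by 1 constant per library, so it cannot change the order within a library. CFB cannot be judged from these counts, and C1S, at as few as 62 reads in a library, is the least precise member.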

Other observations

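Genes whose log2 CPM ran closely with that of C3, LCN2 and TNFAIP2 over the 6 libraries were looked up among 8036 genes averaging at least 5 CPM. The likeness is a Pearson r over 6 libraries that fall into 2 groups, share library depth and were compared with all of these genes, so it is a description only. For C3 they were NUP210, a nuclear pore protein gene (r 0.999, log2 fold change -0.93), SMCO4 (0.999, -1.32) and ASB13 (0.998, -1.20). For LCN2 they included MPV17L2 (0.998, -0.27, not called) and DNAJB6, a cochaperone gene (0.997, -0.58). For TNFAIP2 they were LRRC8A, a volume-regulated anion channel subunit gene (0.999, -0.96), MYH14, a non-muscle myosin heavy chain gene (0.999, -1.21), and SREBF1, a regulator of lipid synthesis (0.999, -1.06). Of the genes named here, all but MPV17L2 were called lower by edgeR, which the choice of members that were themselves lower favours. On the lists used here, 0 of them are complement or antimicrobial genes. Nothing is read from that, since few genes were taken from the 8036.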
